A study of Mus musculus with 15 samples.

Results

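Bmf and 9 other genes of the BCL2 family, which govern cell survival, were followed in alveolar macrophages of mice without a working Cybb gene. The members were chosen by symbol, 1 row per gene, and make 10 of the 40510 genes counted. They are Bmf, Bcl2, Bcl2l1, Bcl2l11, Mcl1, Bax, Bak1, Bbc3, Bid and Bcl2a1b. Bmf was picked for its lower level in knockout cells at 12 weeks, so that difference is a description here and carries no test.

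The cells were alveolar macrophages, the phagocytes that live in the airspaces, washed from the lungs of naive C57BL/6 mice. The sort took cells with CD45, SiglecF and CD11c and without Ly6G, and divided them by surface CD11b. Cybb encodes the catalytic subunit of the phagocyte NADPH oxidase, and its loss models chronic granulomatous disease. The groups, with 3 libraries each, were CD11b-high Cybb knockout cells at 12 weeks, CD11b-low knockout cells at 12 weeks, CD11b-low wild-type cells at 12 weeks, CD11b-low knockout cells at 4 weeks and CD11b-low wild-type cells at 4 weeks. Each library pooled 2 to 3 mice and about 50000 cells, so differences between single mice were not seen. A CD11b-high wild-type group was not analysed here, so CD11b-high knockout cells could be set only against CD11b-low wild-type cells, and genotype and CD11b status cannot be told apart in that comparison.

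Proteins of the BCL2 family decide whether the outer membrane of mitochondria is breached, the step that commits a cell to the mitochondrial route of apoptosis. The effectors BAX and BAK form the pores. Anti-apoptotic members such as BCL2, BCL-XL (gene Bcl2l1), MCL1 and A1 (the Bcl2a1 genes) hold the effectors in check, and BH3-only proteins such as BIM (Bcl2l11), BID, PUMA (Bbc3) and BMF release them by binding the anti-apoptotic members or by engaging the effectors. BIM and BMF are both known to bind dynein light chains, BMF that of the myosin V motor. Much of the control of these proteins lies in their cleavage, phosphorylation and turnover, which RNA counts do not show.

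The libraries held 22856331 to 36458893 counts (median 32415469). Levels are CPM, each gene's share of its library's counts, scaled by the trimmed mean of M values (TMM), and fold changes come from an edgeR quasi-likelihood fit over 13284 genes. Across the 9 knockout libraries Cybb ranged over 129 to 221 CPM, below the 899 to 2319 CPM of the 6 from wild-type mice. All 10 alveolar macrophage markers had counts in every group. T and NK cell markers other than Cd2, which was left out after its high level in all groups was seen, summed to 94.5 to 222 CPM in CD11b-high knockout libraries of 12 weeks. Their sum was 65.9 to 151 CPM in the CD11b-low knockout libraries of that age, against 3.52 to 10.1 CPM in those of wild-type mice. With Cd2 counted, the sums at 12 weeks were not higher in knockout libraries, at 940.3 to 1221 CPM in CD11b-high and 1281 to 1561 CPM in CD11b-low knockout libraries, against 1336 to 1844 CPM in wild type. At 4 weeks their sum without Cd2 was 2.26 to 3.82 CPM for knockout libraries, against 2.15 to 4.33 CPM for wild-type ones. Neutrophil markers at 12 weeks summed to 353 to 455 CPM in CD11b-high knockout libraries. In CD11b-low libraries of that age they came to 83.2 to 166 CPM without Cybb, against 61.7 to 73.3 CPM in wild type. S100a8 had the highest mean of these markers in each 12-week group, at 304 CPM in CD11b-high cells. Leaving S100a8 out gave sums of 40.4 to 157 CPM for CD11b-high cells and 27.3 to 47.6 CPM for CD11b-low cells lacking Cybb. The wild type then held 22.8 to 42.45 CPM, and all these ranges overlapped. Ly6g had 0 counts in every group. Summed red cell markers were lower in knockout libraries, at 45.8 to 182 CPM, against 571 to 7486 CPM in wild-type libraries. Wild-type replicate 1 of 12 weeks stood apart, lying over 2-fold from both of its group mates in 1691 of 6546 genes at 10 CPM or more, against 7 to 444 genes in the other 14 libraries. For most results that use it, a value without it is given.

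Counts of members called are set here beside the share of all genes called. No such share was taken at an unadjusted p under 0.05, so counts at that level cannot be read as an excess or a lack. All 10 members passed the filter on low counts, Bcl2 only through the 12-week libraries, so its difference with age is described by its counts and carries no test, which leaves 8 members besides Bmf and Bcl2 for tests of age. In CD11b-low cells at 12 weeks, 0 of the 9 other members passed an adjusted p of 0.05 between knockout and wild type, where 3.10% of all genes did (3 of the 9 at an unadjusted p under 0.05, and 0 by DESeq2). Those 3, Bcl2l1, Mcl1 and Bid, had log2 fold changes of 0.91, -0.56 and 0.79. Without wild-type replicate 1 these were 0.46, -0.29 and 0.38. At 4 weeks 0 of all 10 members, Bmf included, passed, against 0.0979% of all genes (0 at an unadjusted p under 0.05, and 0 by DESeq2). Bcl2 had at most 5 counts in a library of 4 weeks, too few for its lack of a call there to carry weight. Between CD11b-high and CD11b-low knockout cells, 0 of 9 passed, against 0.693% of all genes (0 at an unadjusted p under 0.05, and 0 by DESeq2). A fit of those libraries alone, paired by replicate number, called 246 genes and 0 of the 9 (1 at an unadjusted p under 0.05). With age, Bcl2a1b rose in knockout cells, 1 of 8 members against 6.89% of all genes. Bcl2a1b also rose in wild-type cells and Bcl2l1 fell there, 2 of 8 members against 17.2% of all genes. In CD11b-high knockout cells over those of wild-type mice edgeR called 1 of 9, Bid, where 14.8% of all genes passed, and DESeq2 called 2, Bid and Bcl2l1, both higher. The difference in genotype effect between the ages passed for 0 of 8 members, against 0.248% of all genes (1 at an unadjusted p under 0.05, and 0 by DESeq2). Between knockout and wild type the CD11b-low groups did not overlap for 4 of 9 members at 12 weeks, against 17.8% of all genes, and for 1 of 9 at 4 weeks, against 8.63%. For CD11b-high knockout over wild-type cells this held for 3 of 9, against 26.4%, and for CD11b-high over CD11b-low knockout cells for 0 of 9, against 13.8%. With age it held for 2 of 8 members in knockout and 2 of 8 in wild-type cells, against 38.6% and 34.3% of all genes.

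**Figure D1:**
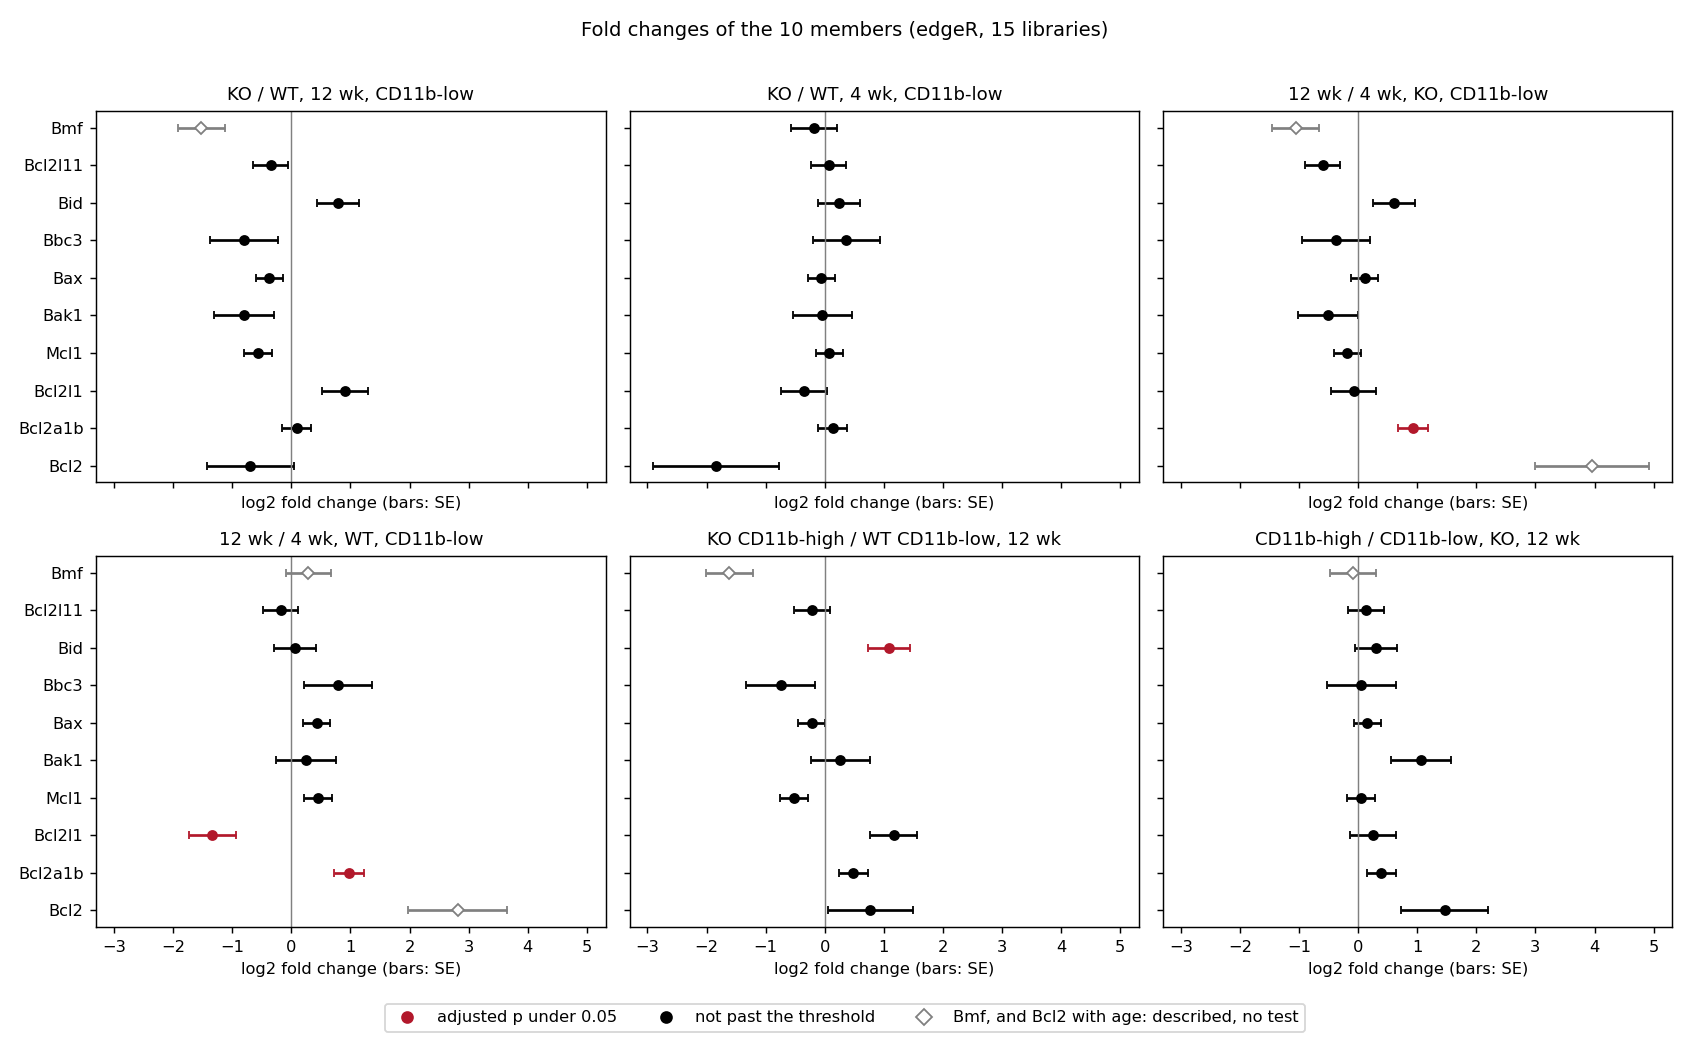
Log2 fold changes of the 10 members (points) with their standard errors (bars) in 6 comparisons, each with the tested group over its reference as titled; red marks an adjusted p under 0.05 and open diamonds mark Bmf and, with age, Bcl2, which are described without a test. Bcl2a1b is red in both age comparisons, Bcl2l1 in the wild-type age comparison and Bid in CD11b-high knockout over wild-type cells.

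Bmf (ENSMUSG00000040093, 2:118528757-118549687 on the minus strand of GRCm38), the BH3-only gene linked to the cytoskeleton, had lower levels in the knockout groups of 12 weeks than in wild-type cells of that age. Its level was 3.59, 3.14 and 9.42 CPM in CD11b-high knockout, 5.58, 6.50 and 5.19 CPM in CD11b-low knockout, and 26.3, 10.4 and 13.1 CPM in wild-type libraries, replicates 1 to 3 in each. Every knockout library of 12 weeks lay below every wild-type library of that age, and CD11b-high replicate 3 came nearest. Separation from wild type held for 17.8% of all genes in CD11b-low and 26.4% in CD11b-high knockout cells. Bmf was picked for its lower level at this age. At 4 weeks Bmf stood at 9.42, 12.0 and 14.6 CPM in knockout and at 13.2, 11.6 and 15.9 CPM in wild-type libraries, and the groups overlapped.

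The differences that chose Bmf, or that share libraries with that choice, have only a size. CD11b-low knockout cells were 2.88-fold lower than wild-type cells at 12 weeks (log2 fold change -1.52, SE 0.40). Without wild-type replicate 1 the log2 fold change was -1.03, and leaving out single libraries moved it between -1.77 and -1.03. CD11b-high knockout cells differed from wild-type cells by -1.61 on the log2 scale (-1.11 without wild-type replicate 1) and from CD11b-low knockout cells by -0.09. From 4 to 12 weeks the log2 difference was -1.06 in knockout cells, without overlap between the ages, as held for 38.6% of all genes. In wild-type cells it was 0.29, and -0.21 without wild-type replicate 1. These comparisons share libraries, and the fall with age in knockout cells and the genotype difference at 12 weeks use the same 3 knockout libraries. The genotype comparison at 4 weeks uses none of the 12-week libraries that chose Bmf. There knockout cells averaged 12.0 ± 2.61 CPM of Bmf, against 13.6 ± 2.21 CPM in wild type (SD, n = 3 each). The log2 fold change was -0.18 with a standard error of 0.39 (adjusted p = 1).

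Measured beside the 3 other BH3-only members per kilobase of exon, with itself in the sum, Bmf made 3.37 to 11.6% of the level in CD11b-high knockout libraries of 12 weeks. Its share was 6.84 to 8.43% in CD11b-low knockout libraries of that age, against 14.2 to 41.7% in wild type. It made 14.4 to 20.1% in knockout and 20.1 to 22.2% in wild-type cells at 4 weeks. The highest share, 41.7%, was that of wild-type replicate 1 at 12 weeks. In these bulk libraries, fewer cells that express a gene and less RNA per cell cannot be told apart.

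**Figure D2:**
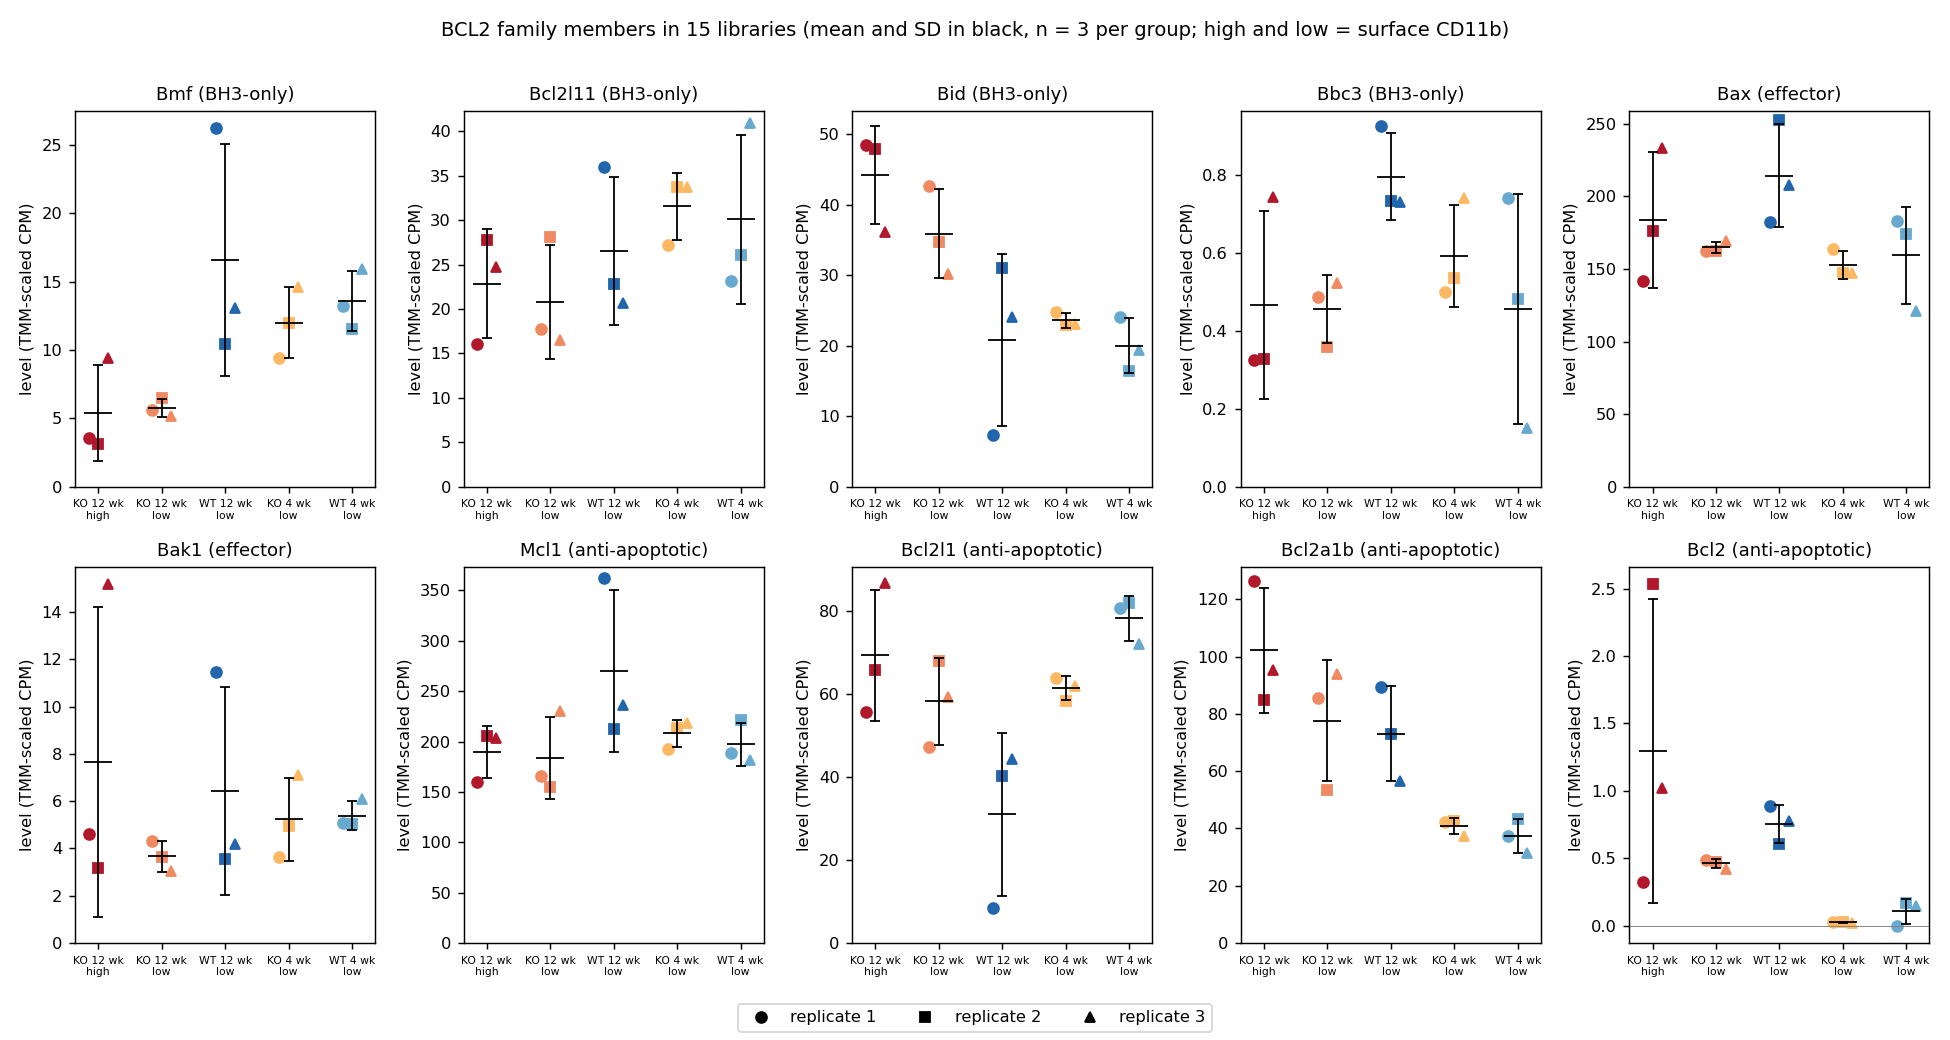
Level of each member in the 15 libraries, as TMM-scaled CPM on a linear axis that differs between panels; symbols are replicates 1 to 3, black lines the group mean and SD (n = 3). Bmf is below 10 CPM in all 6 knockout libraries of 12 weeks, and wild-type replicate 1 of 12 weeks is the highest library for Bmf and Mcl1 and the lowest for Bid and Bcl2l1.

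Bcl2l11 (ENSMUSG00000027381, 2:128126038-128162547, plus strand) encodes BIM, the BH3-only protein that binds all main anti-apoptotic members. It lay at 16.0, 27.8 and 24.7 CPM in CD11b-high knockout, 17.7, 28.1 and 16.5 CPM in CD11b-low knockout and 36.0, 22.8 and 20.7 CPM in wild-type libraries at 12 weeks. At 4 weeks it lay at 27.2, 33.7 and 33.8 CPM in knockout and 23.2, 26.1 and 41.0 CPM in wild-type libraries. The groups overlapped in all 6 pairwise comparisons. In CD11b-low cells of 12 weeks its log2 fold change was -0.35 in knockout against wild type (SE 0.30, adjusted p = 0.524) and -0.065 without wild-type replicate 1, and with age in knockout cells it was -0.60 (SE 0.30, adjusted p = 0.223).

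Forkhead factors such as FOXO3 are known regulators of Bcl2l11, and Foxo3, among the other apoptosis genes described further on, differed between these groups. The RefSeq promoters (GRCm38.p6, 250 bases before to 50 after a start site) of Bmf and Bcl2l11 are shown for that reason. The motif GTAAACA and its reverse complement TGTTTAC, chosen after values were seen, were searched on both strands and stand in capitals. The Bmf promoter is 2:118549637-118549936 (minus strand) and that of Bcl2l11 is 2:128125788-128126087 (plus strand).
Bmf: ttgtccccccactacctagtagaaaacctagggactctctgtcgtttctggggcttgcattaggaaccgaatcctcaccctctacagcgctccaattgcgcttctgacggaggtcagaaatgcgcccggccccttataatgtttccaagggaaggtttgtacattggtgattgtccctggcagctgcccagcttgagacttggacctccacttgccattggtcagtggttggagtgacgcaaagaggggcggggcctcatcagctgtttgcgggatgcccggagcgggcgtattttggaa
Bcl2l11: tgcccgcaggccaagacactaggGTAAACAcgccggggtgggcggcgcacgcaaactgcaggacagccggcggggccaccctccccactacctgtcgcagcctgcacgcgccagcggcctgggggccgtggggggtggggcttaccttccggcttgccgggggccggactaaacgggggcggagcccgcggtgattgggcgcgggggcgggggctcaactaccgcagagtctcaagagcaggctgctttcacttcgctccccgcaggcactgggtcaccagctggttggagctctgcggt
The motif stood once in the Bcl2l11 promoter shown, 227 bases before the start site, and not in the other of the 2 Bcl2l11 promoters used. It stood in none of the 3 Bmf promoters. It occurred in 1199 of 32851 promoters (3.65%) and in 2 of the 17 promoters of the members, belonging to Bbc3 and Bcl2l11. A match of 7 letters is a description of the sequence and not a binding site.

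Bid (ENSMUSG00000004446, 6:120891930-120916853, minus strand) encodes the BH3-only protein that caspase-8 cleaves to carry a death receptor signal to mitochondria. Its level was 48.4, 48.0 and 36.2 CPM in CD11b-high knockout, 42.7, 34.7 and 30.2 CPM in CD11b-low knockout and 7.33, 31.0 and 24.1 CPM in wild-type libraries at 12 weeks. At 4 weeks it was 24.8, 22.9 and 23.1 CPM in knockout and 24.1, 16.4 and 19.4 CPM in wild-type libraries. CD11b-high knockout libraries all lay above the wild-type libraries, and CD11b-low knockout replicate 3 lay below wild-type replicate 2. Bid rose 2.12-fold in CD11b-high knockout against wild-type cells (log2 fold change 1.09, SE 0.36, adjusted p = 0.0488). That call ended without any 1 of 5 of the 6 libraries, with a log2 fold change of 0.68 and an adjusted p of 0.0549 without wild-type replicate 1 and a range of adjusted p from 0.0187 to 0.141. It was also lost with DESeq2 size factors (adjusted p = 0.0548) and with only the groups compared in the fit (adjusted p = 0.242). In CD11b-low knockout against wild-type cells at 12 weeks the log2 fold change was 0.79 (SE 0.35, adjusted p = 0.225), and 0.38 without wild-type replicate 1 (adjusted p = 0.406). The exons of Bid overlap those of Bcl2l13 on the other strand by 628 bases, and whether counting used the strand is not given in the sources used here.

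Bbc3 (ENSMUSG00000002083, 7:16308393-16318205, plus strand), which encodes the p53-induced protein PUMA, had only 5 to 31 counts in a library. It stood at 0.326, 0.328 and 0.744 CPM in CD11b-high knockout, 0.488, 0.358 and 0.522 CPM in CD11b-low knockout and 0.926, 0.732 and 0.730 CPM in wild-type libraries at 12 weeks. The CD11b-low groups of 12 weeks did not overlap, as was true of 17.8% of all genes in that comparison, and the log2 fold change of -0.80 had a standard error of 0.58 (adjusted p = 0.443). At 4 weeks Bbc3 ranged from 0.500 to 0.742 CPM in knockout and from 0.151 to 0.740 CPM in wild-type libraries.

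The effectors Bax and Bak1 were not called in any comparison. Bax (ENSMUSG00000003873, 7:45461697-45466898, minus strand) stood at 141, 176 and 234 CPM in CD11b-high knockout, 163, 163 and 169 CPM in CD11b-low knockout and 182, 252 and 208 CPM in wild-type libraries at 12 weeks. All 3 CD11b-low knockout libraries lay below the 3 wild-type libraries, and their log2 fold change was -0.38 (SE 0.23, adjusted p = 0.356). Knockout libraries of 4 weeks held 147 to 164 CPM of Bax, against 121 to 183 CPM in wild type. Its exons share 192 bases with those of Gm45808 on the same strand.

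Bak1 (ENSMUSG00000057789, 17:27019810-27029009, minus strand) was far lower than Bax per kilobase, with medians over the 15 libraries of 1.91 CPM per kb for Bak1 and 107.5 CPM per kb for Bax. It stood at 4.61, 3.19 and 15.2 CPM in CD11b-high knockout, 4.33, 3.64 and 3.03 CPM in CD11b-low knockout and 11.5, 3.57 and 4.20 CPM in wild-type libraries at 12 weeks. CD11b-high replicate 3 and wild-type replicate 1 held the highest levels, each above both of its group mates. At 4 weeks it ranged from 3.63 to 7.10 CPM in knockout and from 5.01 to 6.08 CPM in wild-type libraries. Between CD11b-high and CD11b-low knockout cells the log2 fold change was 1.07 with a standard error of 0.51 (adjusted p = 0.501). Exons of Ggnbp1 overlap those of Bak1 on the other strand.

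Mcl1 (ENSMUSG00000038612, 3:95658788-95663176, plus strand), a short-lived anti-apoptotic protein on which many myeloid cells depend, was abundant in every library. It stood at 159, 205 and 203 CPM in CD11b-high knockout, 166, 155 and 230.1 CPM in CD11b-low knockout and 362, 212 and 237 CPM in wild-type libraries at 12 weeks. The CD11b-high libraries lay below all wild-type libraries (log2 fold change -0.51, SE 0.24, adjusted p = 0.156), and the CD11b-low knockout and wild-type libraries overlapped (log2 fold change -0.56, SE 0.24, adjusted p = 0.2). Without wild-type replicate 1 these values were -0.25 and -0.29. Knockout cells of 4 weeks averaged 208 ± 13.5 CPM of Mcl1, against 197 ± 21.3 CPM in wild type (SD, n = 3 each), and the log2 fold change was 0.08 (SE 0.24, adjusted p = 1).

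Bcl2l1 (ENSMUSG00000007659, 2:152780668-152831728, minus strand), which encodes BCL-XL, fell with age in wild-type cells. Its level was 55.7, 65.8 and 86.7 CPM in CD11b-high knockout, 47.3, 68.1 and 59.3 CPM in CD11b-low knockout and 8.41, 40.2 and 44.4 CPM in wild-type libraries at 12 weeks. At 4 weeks it was 64.0, 58.5 and 62.0 CPM in knockout and 80.6, 82.0 and 72.1 CPM in wild-type libraries. Wild-type cells of 12 weeks lay below all other groups without overlap, and replicate 1 was lowest. From 4 to 12 weeks the log2 fold change was -1.34 in wild-type cells (2.53-fold lower, SE 0.39, adjusted p = 0.0278) and -0.08 in knockout cells (SE 0.39, adjusted p = 0.934). Without wild-type replicate 1 of 12 weeks the fall was smaller and still called (-0.89, adjusted p = 0.0112), and it missed the threshold without any 1 of the 3 wild-type libraries of 4 weeks (highest adjusted p = 0.0712). It was also not called when the fit held only those 2 groups (adjusted p = 0.116).

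Set against wild type, Bcl2l1 lay on opposite sides at the 2 ages. At 12 weeks CD11b-low knockout cells were higher (log2 fold change 0.91, SE 0.39, adjusted p = 0.206) and at 4 weeks knockout cells were lower (-0.35, SE 0.39, adjusted p = 1), in both cases without overlap and without passing the test. Groups that do not overlap made up 17.8% of all genes at 12 weeks and 8.63% at 4 weeks. CD11b-high knockout against wild-type cells gave 1.16 (SE 0.39, adjusted p = 0.0555, and 0.0267 by DESeq2), also without overlap, which 26.4% of all genes showed there. Without wild-type replicate 1 of 12 weeks the difference of CD11b-low knockout cells was 0.46 (adjusted p = 0.26), and that of CD11b-high knockout cells 0.72 (adjusted p = 0.032).

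Bcl2 (ENSMUSG00000057329, 1:106538178-106714274, minus strand), the founding member of the family, was nearly absent at 4 weeks and low at 12 weeks. CD11b-high knockout libraries of 12 weeks held 8, 54 and 33 counts, CD11b-low knockout libraries 16, 16 and 13, and wild-type libraries 22, 19 and 17. At 4 weeks knockout libraries held 1 count each, and wild-type libraries 0, 5 and 5. Every CD11b-low library of 12 weeks exceeded those of its genotype at 4 weeks. The ratio of depth-scaled summed counts of 12 over 4 weeks was 17.8 in knockout cells (45 against 3 counts) and 7.42 in wild-type cells (58 against 10 counts). With so few counts at 4 weeks these ratios are rough, and they carry no test.

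Within CD11b-low cells of 12 weeks the knockout libraries lay below the wild-type libraries, at 0.488, 0.477 and 0.424 CPM against 0.886, 0.605 and 0.776 CPM (log2 fold change -0.70, SE 0.73, adjusted p = 0.612). CD11b-high cells reached 2.53 CPM in replicate 2 and 0.326 CPM in replicate 1, around the CD11b-low knockout libraries, and the log2 fold change was 1.46 (SE 0.73, adjusted p = 0.54). Bcl2 is also a gene of lymphocytes. Cd3e, a T cell gene, stood at 6.11, 19.9 and 6.35 CPM in CD11b-high knockout and 12.2, 32.3 and 10.6 CPM in CD11b-low knockout, against 0.242, 0.732 and 0.411 CPM in wild-type libraries at 12 weeks, and at 0.0478 to 0.526 CPM at 4 weeks. The part of such cells in the Bcl2 counts was not tested. Bcl2 exons overlap the antisense gene D630008O14Rik by 558 bases.

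**Figure D3:**
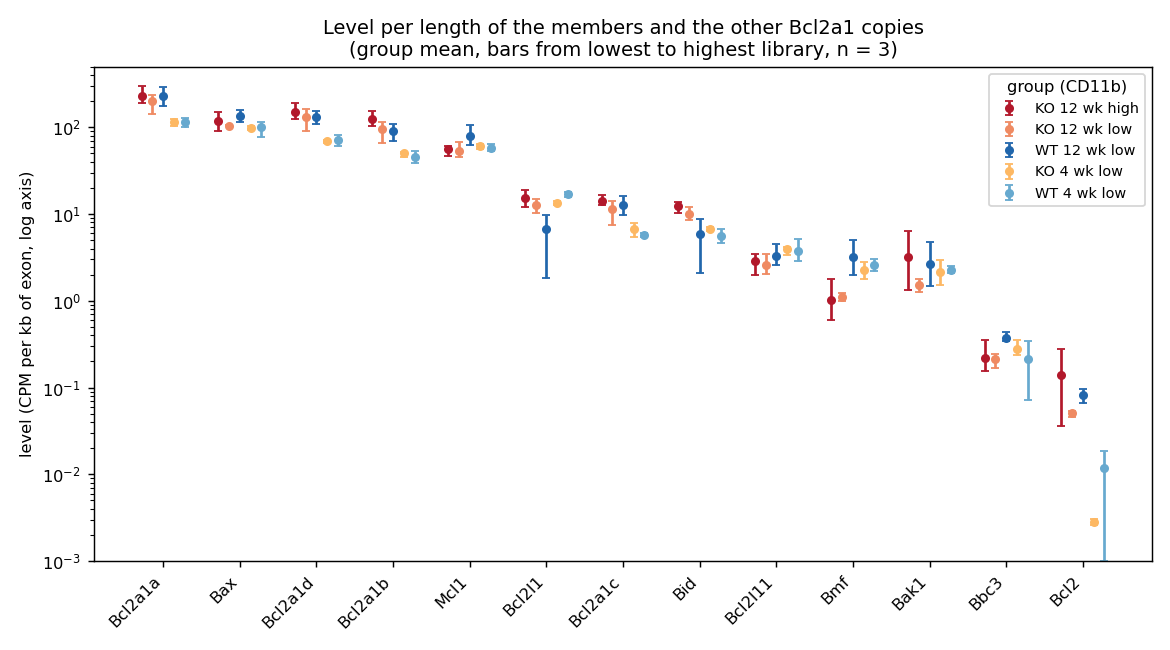
Level per kilobase of exon (log axis) for the 10 members and the 3 other Bcl2a1 copies; points are group means and bars run from the lowest to the highest library (n = 3), reaching the axis floor where a library had 0 counts. Bax, the Bcl2a1 copies a, b and d and Mcl1 lie highest and Bcl2 lowest, and the means of the 4 Bcl2a1 copies are higher in each 12-week group than in the 4-week groups.

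Bcl2a1b (ENSMUSG00000089929, 9:89199209-89207827, plus strand) is 1 of 4 mouse genes for A1, an anti-apoptotic protein induced in activated myeloid cells. It stood at 126, 84.8 and 95.2 CPM in CD11b-high knockout, 85.6, 53.6 and 93.9 CPM in CD11b-low knockout and 89.6, 73.1 and 56.6 CPM in wild-type libraries at 12 weeks. At 4 weeks it stood at 42.4, 42.7 and 37.5 CPM in knockout and 37.3, 43.1 and 31.4 CPM in wild-type libraries. Every 12-week library exceeded every 4-week library. Bcl2a1b rose with age by 0.93 on the log2 scale in knockout cells (1.90-fold, SE 0.25, adjusted p = 0.0354) and by 0.97 in wild-type cells (1.96-fold, SE 0.25, adjusted p = 0.0145). Genotype made little difference, with log2 fold changes of 0.09 at 12 weeks (SE 0.25, adjusted p = 0.865) and 0.13 at 4 weeks (SE 0.25, adjusted p = 1).

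The copies are close enough for reads to be shared, so the split of counts between them is uncertain. The first 120 coding bases of copies b, d and a show this, with the 7 positions at which they differ in capitals (GENCODE M21 transcripts on GRCm38, 9:89199360-89199479 plus, 9:88731600-88731719 minus and 9:88957051-88957170 plus).
Bcl2a1b: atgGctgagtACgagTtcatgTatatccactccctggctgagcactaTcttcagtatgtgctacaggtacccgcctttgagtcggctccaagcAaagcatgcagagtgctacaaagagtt
Bcl2a1d: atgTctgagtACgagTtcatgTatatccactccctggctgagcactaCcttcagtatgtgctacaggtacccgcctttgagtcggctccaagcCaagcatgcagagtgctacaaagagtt
Bcl2a1a: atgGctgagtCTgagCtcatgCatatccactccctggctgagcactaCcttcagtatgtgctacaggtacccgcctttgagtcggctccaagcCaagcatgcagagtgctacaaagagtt
Over the 516 coding bases, copy b was 98.84% identical to copy d and 97.87% to copy a. Of the 50-base windows of the Bcl2a1b transcript, 57.55% stood unchanged in another copy, and of its 100-base windows 31.06%. For Bcl2a1c, which stands further apart, these shares were 10.38% and 0%. Bcl2a1b also shares 401 exon bases with Gm29094.

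The other copies gave age differences of like size. In wild-type cells Bcl2a1a, Bcl2a1c and Bcl2a1d rose by 0.99, 1.13 and 0.90 on the log2 scale (adjusted p = 0.0144, 0.0183 and 0.0198), calls that ended without 4-week replicate 1 or 3 and, for Bcl2a1c, also without replicate 2. In knockout cells Bcl2a1d rose by 0.93 (adjusted p = 0.0331), while Bcl2a1a stood at 0.79 (adjusted p = 0.0682) and Bcl2a1c at 0.78 (adjusted p = 0.119). Bcl2a1a, the most abundant copy per kilobase, ran at 12 weeks from 155 to 242 CPM in CD11b-high knockout libraries. Its CD11b-low libraries of that age held 115 to 195 CPM without Cybb, against 144 to 240 CPM in wild type. At 4 weeks it ran from 84.6 to 102 CPM without Cybb, against 83.4 to 105 CPM in wild type. With the 4 copies summed to 1 row, the knockout age difference was 0.86 and just missed the threshold. The Bcl2a1b call in knockout cells ended without any 1 of 5 libraries (adjusted p = 0.013 to 0.15), and that in wild-type cells without 4-week replicate 1 or 3 and, at an adjusted p of 0.0585, with only those 2 groups in the fit.

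Per kilobase of exon, the median level over the 15 libraries was 107.5 CPM for Bax, 69.2 CPM for Bcl2a1b and 60.1 CPM for Mcl1. It was 13.5 CPM for Bcl2l1, 7.00 CPM for Bid, 3.25 CPM for Bcl2l11, 1.98 CPM for Bmf, 1.91 CPM for Bak1, 0.246 CPM for Bbc3 and 0.0463 CPM for Bcl2. Neighbours in this order overlapped across the libraries, except that every level of Mcl1 lay above every level of Bcl2l1 and every level of Bak1 above every level of Bbc3. Anti-apoptotic members made 53.4 to 66.4% of the summed level per kilobase in CD11b-high knockout libraries of 12 weeks. In CD11b-low libraries of that age they made 51.3 to 61.8% without Cybb, against 47.8 to 62.2% in wild type. They made 50.9 to 54.0% in knockout and 47.5 to 53.5% in wild-type cells at 4 weeks. BH3-only members made 3.43 to 6.83% across all libraries. These are shares of the 10 members only, which summed to 309 to 365 CPM per kb in CD11b-high knockout libraries. Bcl2a1a and Bcl2a1d, left out of the sum, averaged 229 and 151 CPM per kb there. Pmaip1, a further BH3-only gene also left out, averaged 9.57 CPM per kb. The shares are thus not those of the whole family.

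Beyond the members, 50 further genes of the family and the apoptosis machinery were followed, of which 45 could be tested. Foxo3, a forkhead transcription factor, was the gene of this list called between the genotypes in CD11b-low cells of 12 weeks (1 of 45, against 3.10% of all genes). It stood at 21.0, 29.3 and 23.0 CPM in CD11b-low knockout libraries, against 9.02, 9.17 and 16.3 CPM in wild-type libraries, and rose by 1.09 on the log2 scale (SE 0.28, adjusted p = 0.0416). CD11b-high knockout libraries held 33.5, 32.8 and 30.6 CPM. At 4 weeks Foxo3 held 35.3, 38.5 and 33.4 CPM in knockout and 23.7, 24.0 and 43.6 CPM in wild-type libraries. In wild-type cells it fell with age by 1.41 on the log2 scale (SE 0.28, adjusted p = 0.0048), a call that held without each library in turn. The 12-week genotype call ended without any 1 of 4 libraries, wild-type replicate 1 among them (0.95, adjusted p = 0.107), and with only the 2 groups in the fit (adjusted p = 0.23).

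In CD11b-high against CD11b-low knockout cells Pmaip1, which encodes the BH3-only protein NOXA, rose (1 of 45, against 0.693% of all genes). It stood at 12.0, 23.5 and 42.9 CPM in CD11b-high libraries, against 6.22, 11.3 and 7.18 CPM in CD11b-low knockout libraries and 5.07, 4.74 and 4.79 CPM in wild-type libraries of 12 weeks. The CD11b-high libraries differed widely among themselves. Summed dendritic cell markers stood at 28.0 to 159 CPM in CD11b-high and 3.36 to 19.0 CPM in CD11b-low knockout libraries, and their part in this rise was not tested. The rise over CD11b-low knockout cells was 1.67 on the log2 scale (SE 0.36, adjusted p = 0.0416), and with replicate numbers as blocks, which pair these groups, it missed the threshold (adjusted p = 0.0521). With only these groups in the fit the call was lost, both paired (adjusted p = 0.0587) and unpaired (adjusted p = 0.196). It also ended without any 1 of 5 of the 6 libraries, with a range of adjusted p from 0.00287 to 0.251.

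Set against wild-type cells, CD11b-high knockout cells had 7 of the 45 genes higher and 1 lower, against 9.23% of all genes higher and 5.60% lower. This tally was 8 higher and 5 lower without wild-type replicate 1 of 12 weeks, 8 and 3 by DESeq2, and 3 higher (Bok, Foxo3 and Pmaip1) and 0 lower with only the 2 groups in the fit. Pmaip1 rose by 2.43 (SE 0.37, adjusted p = 0.00035). Bok, a BAX-like gene, stood at 10.3, 7.55 and 19.8 CPM in CD11b-high knockout and 3.50, 1.15 and 2.69 CPM in wild-type libraries and rose by 2.37 (adjusted p = 0.00848). Foxo3 rose by 1.49 (adjusted p = 0.00184), Mdm2, the p53 inhibitor, by 1.28 (adjusted p = 0.00755), Birc6, an inhibitor of apoptosis, by 0.96 (adjusted p = 0.0411) and Fadd, the death receptor adaptor, by 0.95 (adjusted p = 0.0359). Dynll1, a dynein light chain of the kind that holds BIM to microtubules, fell by 0.91 (305, 221 and 214 CPM in CD11b-high knockout, against 540, 448 and 400 CPM in wild-type libraries, adjusted p = 0.00978). The calls for Pmaip1, Bok, Foxo3 and Mdm2 held without each library in turn, while Birc6 and Fadd ended without any 1 of 4 libraries and Dynll1 without CD11b-high replicate 2. With only the 2 groups in the fit, Mdm2 (adjusted p = 0.0632) and Dynll1 (0.13) also missed the threshold.

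With age, 3 of the 45 rose and 1 fell in knockout cells, against 4.81% of all genes higher and 2.08% lower. The tally was 4 higher and 3 lower with only those 2 groups in the fit. Ddit3, a stress-induced transcription factor gene, stood at 59.6, 27.0 and 35.4 CPM at 12 weeks and 14.3, 10.5 and 16.1 CPM at 4 weeks, a rise of 1.58 (SE 0.33, adjusted p = 0.00942). Fas, a death receptor gene, rose by 1.08 (107, 68.0 and 114 CPM at 12 weeks against 43.1, 45.8 and 48.2 CPM at 4 weeks, adjusted p = 0.00924) and Bcl2a1d rose as given above. Bcl2l13, the neighbour that overlaps Bid, fell by 0.94 (adjusted p = 0.0435), a call that ended when any single library was left out. The call for Ddit3 ended without 12-week replicate 1 or 4-week replicate 2, that for Fas without 4-week replicate 1, and that for Bcl2a1d without any 1 of 5 libraries.

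In wild-type cells 8 of the 45 rose with age and 5 fell, against 8.79% of all genes higher and 8.39% lower. With only those 2 groups in the fit 0 rose and 4 fell, Birc6, Fadd, Foxo3 and Usp9x, and without 12-week replicate 1 the tally was 9 higher and 6 lower. Ddit3 rose by 1.26 (adjusted p = 0.0154), Dynll1 by 0.88 (adjusted p = 0.0116) and Fas by 0.78 (adjusted p = 0.0244), beside the 3 other Bcl2a1 copies. The falls were in Birc6 (-1.65, adjusted p = 0.00413), Foxo3, Usp9x, a deubiquitinase of MCL1 (-1.33, adjusted p = 0.00734), Fadd (-1.17, adjusted p = 0.0118) and Casp9, the caspase of the apoptosome (-1.01, adjusted p = 0.02). Birc6 stood at 24.0, 19.5 and 35.2 CPM at 12 weeks, below the 64.5, 81.3 and 100.1 CPM at 4 weeks. The falls of Birc6, Foxo3, Usp9x and Fadd held without each library in turn. The call for Ddit3 ended without 12-week replicate 1 (0.93, adjusted p = 0.0511) or 4-week replicate 1 or 2, and that for Dynll1 without 4-week replicate 1. The call for Casp9 ended without any 1 of 3 libraries and that for Fas without any 1 of 5.

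Knockout against wild type at 4 weeks gave 0 of 45 calls, as did the difference in genotype effect between the ages, by edgeR and by DESeq2. At an unadjusted p under 0.05 there were 0 at 4 weeks and 1 for the difference, counts with no share of all genes to set beside them. The most abundant genes of the list, Vdac2, a mitochondrial channel that binds BAK, and Dynll1, had log2 fold changes at 4 weeks of -0.01 (SE 0.26, adjusted p = 1) and -0.04 (SE 0.22, adjusted p = 1).

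Among 6389 genes with a mean of at least 10 CPM, 10 had a Pearson correlation of at least 0.9 with Bmf across the 15 libraries on the log2 scale. The closest were Ezr (r = 0.94), the membrane-to-actin linker ezrin, Il6ra (0.94), an interleukin-6 receptor chain, Rara (0.92), a retinoic acid receptor, Vim (0.92), the filament protein vimentin, and Akt1 (0.92), a survival kinase. Without wild-type replicate 1 of 12 weeks the values were 0.95, 0.93, 0.94, 0.91 and 0.89. Ezr stood at 87.6, 94.6 and 160 CPM in CD11b-high knockout, 133, 166 and 134 CPM in CD11b-low knockout and 279, 168 and 195 CPM in wild-type libraries at 12 weeks. Wild-type replicate 1 was the highest of these for Ezr as for Bmf. These points share libraries and groups, and the genes were picked as the highest of many, so the correlations are a description.

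Among the other members, r with Bmf ran from 0.63 for Bcl2l11 to -0.87 for Bid, which stayed at -0.86 without wild-type replicate 1. After the group means were removed, Bak1 followed Bmf most closely of the members (r = 0.97 within groups, and 0.96 within the 4 groups other than 12-week wild type), against 0.56 before. CD11b-high replicate 3 and 12-week wild-type replicate 1 were the highest of their groups for both genes. Bid went the other way within groups at -0.68, and at -0.44 within the 4 groups.

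**Figure D4:**
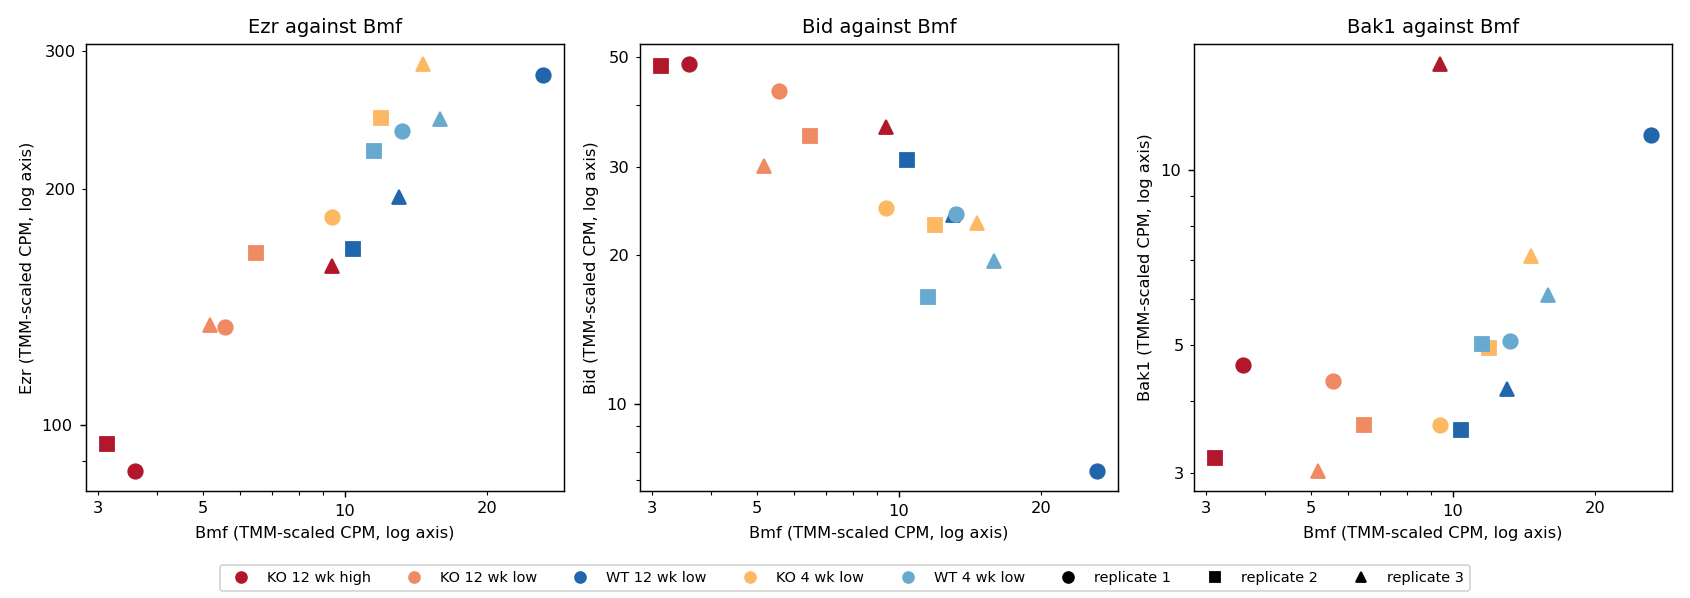
Level of Ezr, Bid and Bak1 against that of Bmf in each of the 15 libraries, as TMM-scaled CPM on log axes; colours are groups and symbols replicates. Ezr goes up and Bid goes down with Bmf across libraries, while for Bak1 the CD11b-high replicate 3 and wild-type replicate 1 of 12 weeks stand above the rest.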

How the data were processed

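RNA of sorted alveolar macrophages was sequenced in 15 libraries. The authors deposited raw counts per gene. The tools named are STAR, Subread and featureCounts, per the submitters' processing notes, and the genome build, versions and strand setting are not given in the sources used here, so counts of overlapping genes and near copies are uncertain. Of 40780 rows, 270 repeated a gene and were removed, leaving 40510 genes, of which 40254 matched GENCODE M21 by identifier for exon length and position.

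These counts went into edgeR 4.0.16 under R 4.3.3. filterByExpr (minimum count 10, minimum total 15) kept 13284 genes. A robust quasi-likelihood fit with TMM scaling held all 15 libraries with 1 coefficient per group (10 residual degrees of freedom), and two-sided p-values were adjusted over all tested genes by Benjamini and Hochberg at 0.05. The fit was tested on simulated data. Alternatives were DESeq2 1.42.0, DESeq2 size factors, no filter, a fit of only the groups compared, the replicate number as a block, summed Bcl2a1 copies, and each library left out. The labels call the replicates independent. Within groups any pair differed by more than sampling noise (lowest chi-square per degree of freedom 23.5). That measure cannot tell separate mice from separate preparations of the same cells.

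Same-numbered CD11b-high and CD11b-low knockout libraries deviated together from their group means (correlations 0.113 to 0.43 over genes), so their numbers, taken from the sample titles, were read as pairs.

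The members, gene lists and tests were chosen with earlier results of these data known. Of the wider list, genes past the threshold were named, at most 6 in each direction by size, or the 2 most abundant where none passed. Genes most like Bmf were the 5 with the highest r on log2 CPM (prior count 2), among tested genes at a mean of 10 CPM or more leaving out symbols of predicted genes and pseudogenes.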

Additional observations from a re-analysis of the deposited data

Results flagged for a closer look

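Bcl2l1 was singled out because its genotype difference took opposite signs at the 2 ages in every library. CD11b-low knockout libraries of 12 weeks, at 47.3 to 68.1 CPM, all lay above the wild-type libraries of that age, at 8.41 to 44.4 CPM. Knockout libraries of 4 weeks, at 58.5 to 64.0 CPM, all lay below the wild-type libraries of that age, at 72.1 to 82.0 CPM. The difference at 12 weeks minus that at 4 weeks was 1.26 on the log2 scale (SE 0.55), with an unadjusted p of 0.035 in edgeR, and it did not pass over all genes (adjusted p = 0.547). Without wild-type replicate 1 of 12 weeks it was 0.81, and with each of the 12 libraries left out in turn it ran from 0.81 to 1.61 (adjusted p = 0.3 to 0.84).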

How the results depend on the processing

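Between the genotypes in CD11b-low cells of 12 weeks 412 genes were called, against 1090 with no filter, 880 by DESeq2 and 197 with only the groups compared, and the members called were 2 with no filter and 0 with only the groups compared. Counts of members in these sentences include Bmf, and Bcl2 with age, whose differences carry no test. Without Bmf the count at 12 weeks was 0, and 1 (Bcl2l1) with no filter. At 4 weeks 13 genes were called, against 73, 24 and 4 under the same settings. In CD11b-high against CD11b-low knockout cells 92 were called, against 533, 261 and 24. In CD11b-high knockout against wild-type cells 1970 were called, against 857 with only the groups compared, and the members called were 1 with DESeq2 size factors and 0 with only the groups compared. Without Bmf the count there was 1 (Bid), and 0 under both of these settings. With age in knockout cells 915 were called, against 1395, 1698 and 1667. With age in wild-type cells 2282 were called, against 1022 with only the groups compared, where 0 members were called. For the difference between the ages 33 were called, against 321 with no filter and 151 by DESeq2. The cause of these differences was not tested.

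With the replicate number as a block, 474 genes were called between knockout and wild type at 12 weeks, 13 at 4 weeks, 97 between CD11b-high and CD11b-low knockout cells, 2138 between CD11b-high knockout and wild-type cells, 945 and 2377 with age in knockout and wild-type cells, and 66 for the difference between the ages. A block fit of only those 6 libraries, which are paired, called 246 between CD11b-high and CD11b-low. Among members the block ended the call of Bid in CD11b-high knockout against wild-type cells (adjusted p = 0.0544) and added Bcl2l1 there (0.0304). Same-numbered CD11b-low knockout and wild-type libraries of 12 weeks had correlations of 0.0854 to 0.364. Those with different numbers had -0.321 to 0.167, and the ranges overlapped. For CD11b-high knockout and wild-type libraries the correlations were 0.0186 to 0.185 with the same number and -0.243 to 0.162 with different numbers. What these libraries share beyond a number was not tested.

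With 1 library left out, in fits that pool the spread over groups, 233 to 441 genes and 0 to 1 members were called between knockout and wild type at 12 weeks, 7 to 15 genes and 0 members at 4 weeks, 2 to 227 genes and 0 members between CD11b-high and CD11b-low knockout cells, 967 to 2053 genes and 0 to 2 members between CD11b-high knockout and wild-type cells, 243 to 1337 genes and 0 to 2 members with age in knockout cells, 1113 to 2584 genes and 0 to 3 members with age in wild-type cells, and 3 to 35 genes and 0 members for the difference between the ages. Without Bmf, and without Bcl2 with age, the members called were 0 at 12 weeks, 0 to 1 between CD11b-high knockout and wild-type cells, 0 to 1 with age in knockout cells and 0 to 2 with age in wild-type cells.

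These changes of sign were all in log2 fold changes that were not called. With 1 library left out they ranged, in CD11b-high against CD11b-low knockout cells, from -0.77 to 0.18 for Bmf, -0.029 to 0.38 for Bcl2l11, -0.090 to 0.24 for Mcl1, -0.054 to 0.31 for Bax and -0.47 to 0.26 for Bbc3. In CD11b-high knockout against wild-type cells the ranges were -0.71 to 0.99 for Bak1, -0.15 to 1.22 for Bcl2 and -0.38 to 0.070 for Bcl2l11. For Bcl2a1b they were -0.071 to 0.27 at 12 weeks and -0.20 to 0.13 for the difference between the ages. At 4 weeks they were -0.33 to 0.16 for Bak1, -0.23 to 0.049 for Bax, -0.047 to 0.91 for Bbc3 and -0.088 to 0.36 for Bcl2l11. With age they were -0.20 to 0.051 for Bcl2l1 in knockout cells, and in wild-type cells -0.47 to 0.54 for Bak1, -0.47 to 0.10 for Bcl2l11, -0.35 to 0.46 for Bid and -0.21 to 0.54 for Bmf. Mcl1 with no filter (-0.0078) and Bbc3 in the paired fit of 6 libraries (-0.026) also changed sign between CD11b-high and CD11b-low knockout cells, as did Bcl2a1b at 12 weeks with the copies summed (-0.080). Bbc3 and Bcl2 had at most 31 and 54 counts in a library.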
